A study of Mus musculus with 6 samples.

Results

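The regions described here are places inside introns, past the first intron of their transcript, where the histone mark H3K4me3 was called in mouse oocytes at stage E16.5 of embryonic development. They were chosen by position alone: every region of H3K4me3 replicate 1 whose deposited annotation names an intron numbered 2 or higher. This gave 1280 of the 8129 regions of that list (15.7%, exact 95% interval 15.0 to 16.6%). They are set against the 1169 regions of the same list in first introns. The signal comes from CUT&RUN, in which a nuclease directed by an antibody releases the DNA around its target for sequencing. The cells were GFP-positive cells sorted from gonads of C57BL/6 female embryos that carry an Oct4-EGFP reporter of germ cells and are wild type for Taf4b. All 6 libraries share this genotype and stage, and there were 2 each for H3K4me3, TAF4b and IgG. No untreated or mutant group belongs to the design, and the values come without a background level because IgG was not analysed here. The labels do not say whether the 2 libraries of a target came from separate embryos or pools.

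H3K4me3 is the trimethylated form of lysine 4 on histone H3. It is deposited by SET1 and MLL complexes and is best known as a mark of the nucleosomes around active transcription start sites (TSSs). TFIID, the general factor that binds core promoters, can read the mark through its subunit TAF3. TAF4b is a gonad-enriched relative of the TFIID subunit TAF4. An H3K4me3 region deep inside a transcript can lie at an internal start site or at an element far from any annotated start, and position alone does not say which.

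The H3K4me3 libraries stand far apart in size: replicate 2 held 320 regions against 8129 in replicate 1. Sequencing depth is unknown, as neither list states how many reads lie behind it. Scores of replicate 1 lie on steps of 2.32, the lowest being 10 steps, and 500 bp is the smallest width. The scaling of the scores is not stated, so scores of different lists were not compared. Each test below compares annotation classes within 1 list. Regions are not replicates, and some share a transcript, so the intervals cover counting error only.

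Later-intron regions were found most often early in the count of introns, but they reached far along long transcripts. Intron 2 held 369 of the 1280 (28.8%, 26.4 to 31.4%), intron 3 held 198 (15.5%, 13.5 to 17.6%), and introns 10 and above held 310 (24.2%, 21.9 to 26.7%). The median intron number was 4, the quartiles were 2 and 9, and 73 regions lay in an intron numbered above 20. Their transcripts had a median of 11 introns (order-statistic 95% interval 10 to 12) against 6 (5 to 6) for first-intron regions. The choice of members fixes much of this, since a transcript with more introns has more later ones and 161 of the first-intron regions lay in transcripts with 1 intron. The last intron of the transcript held 218 regions (17.0%, 15.0 to 19.2%). These include the 78 regions in transcripts with 2 introns, where the last intron is the only later one. Higher intron numbers exist in fewer transcripts. Neither that nor intron length was used here, so these counts are not densities and show no preference for an intron number.

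Along transcripts of 10 or more introns, which held 704 of the regions, no end was empty. Intron number as a percentage of the transcript's introns was cut into 5 parts of 20%, which need not hold equal numbers of introns. The part next to the start held 25.0% of these regions (21.8 to 28.4%), although intron 1 itself is left out by the choice of members. The following parts held 17.0%, 20.9%, 16.2% and 20.9%. The median score in the 5 parts was 40.6, 41.8, 41.8, 37.1 and 41.8, which differ by at most 2 steps of the score.

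**Figure D1:**
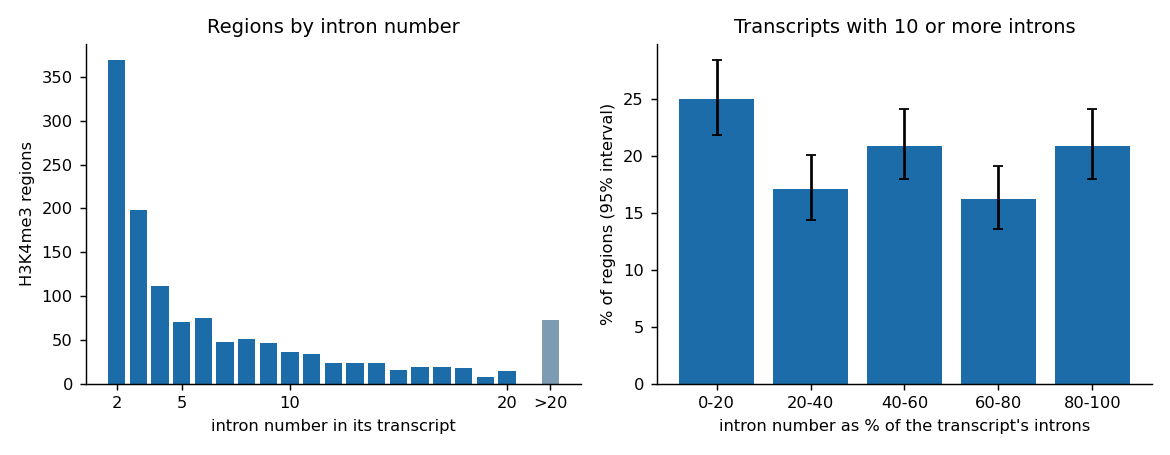
Left, number of later-intron H3K4me3 regions of replicate 1 by intron number, with all introns above 20 in the last bar. Right, for transcripts with 10 or more introns, the share of their 704 regions in each of 5 parts of 20% of the intron count, with exact 95% intervals. Intron 2 holds the most regions, and each part holds between 16.2% and 25.0%.

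The extreme cases show how deep the regions reach. The highest intron number was 125 of 187, in ENSMUST00000212287 on chromosome 11 at 104867903 to 104868403 (GRCm39), with a score of 41.8, the median of the whole list. The next was intron 89 of 114 of ENSMUST00000238536 on chromosome 11 at 58901079 to 58901968, 889 bp wide with a score of 67.3. A narrower region with a score of 37.1 followed in intron 88 of 89 of ENSMUST00000052872, on chromosome 11 at 58907311 to 58907811. The centres of these last 2 regions lie 6038 bp apart, and both have the TSS of ENSMUST00000162526 as their nearest. Their high intron numbers thus come from 2 named transcripts at nearby positions, and whether these belong to the same gene could not be told.

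Most later-intron regions were far from any annotated start. The median distance to the nearest TSS was 11795 bp, the quartiles were 4453 and 27690 bp, and the lowest was 119 bp. First-intron regions had a median of 1151 bp and quartiles of 339 and 8779 bp. Within 1 kb of a TSS were 58 later-intron regions (4.53%, 3.46 to 5.82%) and 565 first-intron regions (48.3%, 45.4 to 51.2%). Beyond 50 kb were 170 (13.3%, 11.5 to 15.3%) and 47 (4.02%, 2.97 to 5.31%). These distances are a description, since the first intron begins next to its own TSS and promoters form a class of their own.

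**Figure D2:**
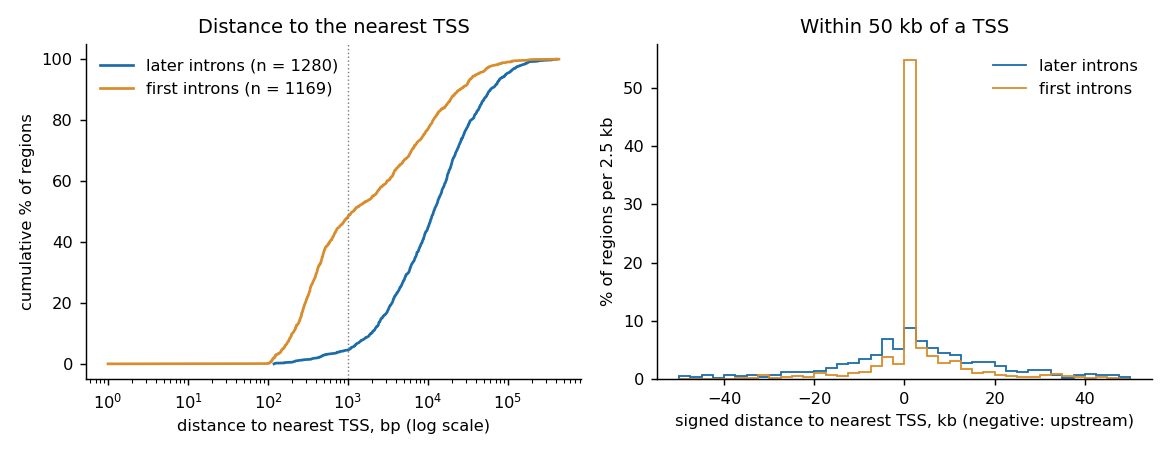
Left, cumulative share of later-intron (n = 1280) and first-intron (n = 1169) H3K4me3 regions by distance to the nearest TSS on a log axis, with 1 kb dotted. Right, shares per bin of signed distance, negative upstream. At 1 kb the curves stand at 4.53% and 48.3%, and the peak of first-intron regions just downstream of a TSS has no counterpart of that height in later introns.

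The nearest TSS was seldom that of the transcript whose intron was named. It was in 147 later-intron regions (11.5%), against 492 first-intron regions (42.1%). All of these 147 lay downstream of it, as they must, at a median of 12181 bp. The other 1133 had the start of another transcript nearest, at a median of 11689 bp, and 530 of them (46.8%) lay upstream of that start. The share with the own TSS nearest was 20.3% in intron 2, 15.7% in intron 3, 7.44% in introns 4 to 9 and 3.55% in introns 10 and above. Of the 58 regions within 1 kb of a TSS, 52 had that of another transcript. All 58 lay downstream, which follows from the annotation, as regions just upstream of a TSS fall in its promoter class. Intron 2 held 32 of the 58. Each annotation names 1 transcript, and none could be matched to a gene. Another transcript may therefore belong to the same gene as the one named.

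The farthest region lay 402777 bp upstream of the nearest TSS, on chromosome 10 at 64328583 to 64329083, in intron 11 of 17 of ENSMUST00000105441, with a score of 32.5. The second farthest, at 367729 bp, was in intron 10 of the same transcript at 64293535 to 64294035, also with a score of 32.5. The third, 357147 bp upstream of a TSS, was in intron 5 of 9 of ENSMUST00000174018 on chromosome 6 at 111115213 to 111115845, with a score of 51. None of the 3 was found in replicate 2, and 2 of them had the minimum width.

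Between later-intron and first-intron regions, no difference was detected in the share wider than 500 bp or in that at or above the median score. Width above 1 kb, given below, was not part of these tests. Regions wider than 500 bp numbered 520 of 1280 (40.6%, 37.9 to 43.4%) against 460 of 1169 (39.3%, 36.5 to 42.2%), where the whole list has 47.0%. This is an odds ratio of 1.05 with an interval of 0.894 to 1.24 (Fisher's exact test, two-sided, p = 0.536; Benjamini-Hochberg adjusted over the 4 shares tested, p = 0.571). Scores at or above the list's median of 41.8 were held by 642 (50.2%, 47.4 to 52.9%) and 572 (48.9%, 46.0 to 51.8%), where the whole list has 55.7%. Here too it was 1.05, with an interval of 0.893 to 1.23 (Fisher's exact test, two-sided, p = 0.571, adjusted p = 0.571). Median scores were 41.8 and 39.4, 1 step apart, and the quartiles of both classes were 32.5 and 53.4.

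Wide regions were a minority. The narrowest width above 500 bp in the list was 625 bp, and the 520 wider members had a median of 703 bp. Over 1 kb wide were 66 (5.16%, 4.01 to 6.51%), against 92 first-intron regions (7.87%, 6.39 to 9.56%) and 525 of 3559 regions of the promoter class (14.8%, 13.6 to 16.0%), a difference that was not tested. Score and width went together within the members, with r = 0.844 (Pearson) and rho = 0.782 (Spearman) over 1280 regions of 1 library. Score gave a rho of -0.012 with intron number and of -0.05 with distance from a TSS.

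**Figure D3:**
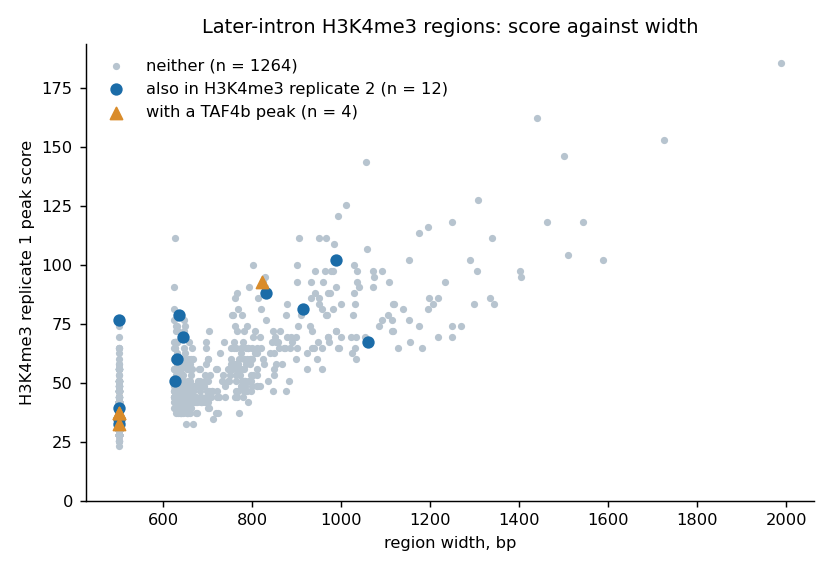
Peak score in H3K4me3 replicate 1 against region width for the 1280 later-intron regions, 1 point each. Blue points are the 12 regions also called in replicate 2 and orange triangles the 4 with a TAF4b peak; regions of 500 bp form the column at the left, no width lies between 500 and 625 bp, and the highest score belongs to the widest region.

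The strongest later-intron region was also the widest. It lay on chromosome 12 at 83758809 to 83760798, spanned 1989 bp in intron 4 of 11 of ENSMUST00000101225, and had a score of 185.6, rank 22 in the whole list. Its nearest TSS was 11610 bp away. The second, with a score of 162.4, lay in intron 34 of 44 of ENSMUST00000103220 on chromosome 2 at 127075877 to 127077316, 2133 bp upstream of another transcript's start. The third, 1725 bp wide with a score of 153.1, lay in the last of 6 introns of ENSMUST00000028882 on chromosome 2 at 129143066 to 129144791. These 3 had another transcript's TSS nearest.

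The next 2 were in last introns of short transcripts with their own TSS nearest. One lay in intron 2 of 2 of ENSMUST00000137021 on chromosome 2 at 34348604 to 34350105, with a score of 146.2, 14995 bp from the TSS. The other, in intron 2 of 2 of ENSMUST00000074941, had a score of 143.8 at 1627 bp. None of the 5 strongest was called in replicate 2 or held a TAF4b peak. The third widest region, 1588 bp with a score of 102.1, lay in intron 3 of 22 of ENSMUST00000070733 on chromosome 12 at 116737748 to 116739336, 78180 bp from a TSS.

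Few later-intron regions were called again in replicate 2. The count was 12 of 1280 (0.938%, 0.485 to 1.63%), against 2.84% of the whole list and 19 of 1169 first-intron regions (1.63%, 0.981 to 2.53%). This difference did not pass the threshold (odds ratio 0.573, interval 0.252 to 1.25; Fisher's exact test, two-sided, p = 0.149, adjusted p = 0.298). Beyond 1 kb of a TSS the direction turned, with 12 of 1222 and 5 of 604 regions (odds ratio 1.19, 0.387 to 4.32). The first-intron regions called again were mostly near a start: 14 of the 19 lay within 1 kb of a TSS, while all 12 later-intron regions lay beyond it, at a median of 15820 bp.

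Seen from replicate 2, later introns held 6.25% of all 320 regions (3.86 to 9.49%). The share in replicate 1 was 15.7% (15.0 to 16.6%), and the difference was not tested. Of the 49 intronic regions of replicate 2, later introns held 20 (40.8%, 27.0 to 55.8%), where the share in replicate 1 was 52.3% (50.3 to 54.3%). Of these 20, 12 overlapped a replicate 1 region (60.0%, 36.1 to 80.9%), as did 17 of the 29 in first introns (58.6%, 38.9 to 76.5%). Across the whole of replicate 2 the share was 72.2% (66.9 to 77.0%). Their intron numbers ran from 2 to 17 with a median of 6, and their distances from a TSS from 429 to 141385 bp. All but 1 had the minimum width.

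The 12 regions found in both lists were assigned to the same intron in each. They had replicate 1 scores of 32.5 to 102.1 with a median of 68.45, against a median of 39.4 for the other 1268. In the highest score group of the list, scores of 60.3 and above, 8 of 241 were found (3.32%, 1.44 to 6.44%). The same group had 11 of 237 first-intron regions (4.64%, 2.34 to 8.15%) and 142 of 2096 regions of the whole list (6.77%, 5.74 to 7.94%).

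The highest of the 12 lay in intron 10 of 13 of ENSMUST00000045846 on chromosome 6 at 85230766 to 85231755, with scores of 102.1 in replicate 1 and 85.1 in replicate 2, 10655 bp from a TSS. Scores of the whole replicate 2 list ran from 63.8 to 27445.5 with a median of 85.1, so similar values in both lists do not mean similar strength. A region in the last of 6 introns of ENSMUST00000048194, on chromosome 4 at 126611916 to 126612748, scored 88.2 and 113.4 and was the only one of the 12 with its own TSS nearest, at 17701 bp. Intron 4 of 21 of ENSMUST00000092486, on chromosome 10 at 61075418 to 61076332, held a region with scores of 81.2 and 85.1. In each of these 3 the 500 bp called in replicate 2 lay wholly inside the replicate 1 region.

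Another lay in intron 3 of 8 of ENSMUST00000118489 on chromosome 17 at 27670771 to 27671407, with scores of 78.9 and 78. The last of 5 introns of ENSMUST00000152452, on chromosome 2 at 157892154 to 157892654, held one with scores of 76.6 and 85.1, sharing 459 bp. The only X-linked one, in intron 9 of 10 of ENSMUST00000087916 at 101355544 to 101356188, had scores of 69.6 and 85.1 and lay 59609 bp from a TSS. Overlap was smaller here, 323 bp. In intron 11 of 15 of ENSMUST00000094179, on chromosome 11 at 57148250 to 57149311, the scores were 67.3 and 78 and the shared stretch was 178 bp. Intron 17 of 40 of ENSMUST00000065716, on chromosome 12 at 98814810 to 98815440, held the only one that was also wider than 500 bp in replicate 2, with scores of 60.3 and 99.3. The remaining 4 had replicate 1 scores from 32.5 to 51.

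TAF4b was rarer at later-intron than at first-intron H3K4me3 regions. A TAF4b peak of either library overlapped 4 of the 1280 later-intron regions (0.312%, 0.0852 to 0.798%) and 31 of the 1169 first-intron regions (2.65%, 1.81 to 3.74%), where the whole list has 10.7%. The difference passed the threshold (odds ratio 0.115, interval 0.0294 to 0.327; Fisher's exact test, two-sided, p = 4.73e-07, adjusted p = 1.89e-06). Distance to a TSS moves with this contrast: 28 of the 31 first-intron regions with TAF4b lay within 1 kb of a TSS. Beyond 1 kb the counts were 3 of 1222 and 3 of 604, and the difference no longer passed the threshold (odds ratio 0.493, interval 0.0659 to 3.69; Fisher's exact test, two-sided, p = 0.404, adjusted p = 0.571). That adjustment kept the other tested shares at their main values, over regions at all distances. With regions stratified by 4 bands of distance, the Mantel-Haenszel odds ratio was 0.410, and its interval of 0.115 to 1.46 includes 1. The first-intron regions with TAF4b had a median score of 71.9, against 39.4 for their whole class, while 3 of the 4 later-intron regions scored below 41.8.

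Each of the 4 held a peak of 1 TAF4b library, and none held both. The strongest was in intron 2 of 2 of ENSMUST00000131159 on chromosome 1 at 131948037 to 131948859, with an H3K4me3 score of 92.8 and a peak of TAF4b replicate 1 at 131948672 to 131948762. That peak scored 6.16, below the list's median of 7.7, and lay 2536 bp downstream of the transcript's own TSS. A second peak of replicate 1, also with a score of 6.16, lay in intron 3 of 21 of ENSMUST00000239167 on chromosome 17 at 69533115 to 69533205, at -17471 bp from a TSS, where H3K4me3 scored 37.1. Both of these peaks were thus in the weaker part of their list.

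The other two were peaks of TAF4b replicate 2. One, with a score of 14.2 against a list median of 18.3, lay in intron 6 of 9 of ENSMUST00000110346 on chromosome 8 at 48795886 to 48796020, at -42819 bp from a TSS, where H3K4me3 scored 37.1. The other scored 21.3 and lay in intron 2 of 34 of ENSMUST00000024238 on chromosome 9 at 108709687 to 108709821, 815 bp downstream of the start of ENSMUST00000192235, where H3K4me3 scored 32.5. This was the only one of the 4 within 1 kb of a TSS and the only one above its TAF4b list's median. By their own annotation, 15 of the 983 peaks of TAF4b replicate 1 lay in later and 14 in first introns. For the 1111 peaks of replicate 2 the counts were 11 and 10. Intron number and length were not taken into account, so these counts are not rates. In each list 2 of the peaks in later introns overlapped a later-intron H3K4me3 region. Peaks overlapping a first-intron H3K4me3 region numbered 21 in each list, more than were annotated to first introns. Some of those peaks were thus annotated to another class.

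Distance bands put both classes on more equal ground. Within 1 kb of a TSS, regions wider than 500 bp made up 39.7% of later-intron (27.0 to 53.4%) and 42.1% of first-intron regions (38.0 to 46.3%). The shares were 43.5% and 38.8% at 1 to 10 kb, 39.5% and 35.1% at 10 to 50 kb, and 35.9% and 29.8% beyond 50 kb. Scores at or above the list's median went the same way: 41.4% and 51.3% within 1 kb, then 53.2% and 49.6%, 49.9% and 44.1%, and 44.7% and 38.3%. Later-intron regions were thus nominally wider and stronger in the 3 outer bands, but the intervals of the classes overlapped in every band. Stratified by these bands, the Mantel-Haenszel odds ratios were 1.18 for width (0.972 to 1.42) and 1.13 for score (0.938 to 1.36), and both intervals include 1.

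**Figure D4:**
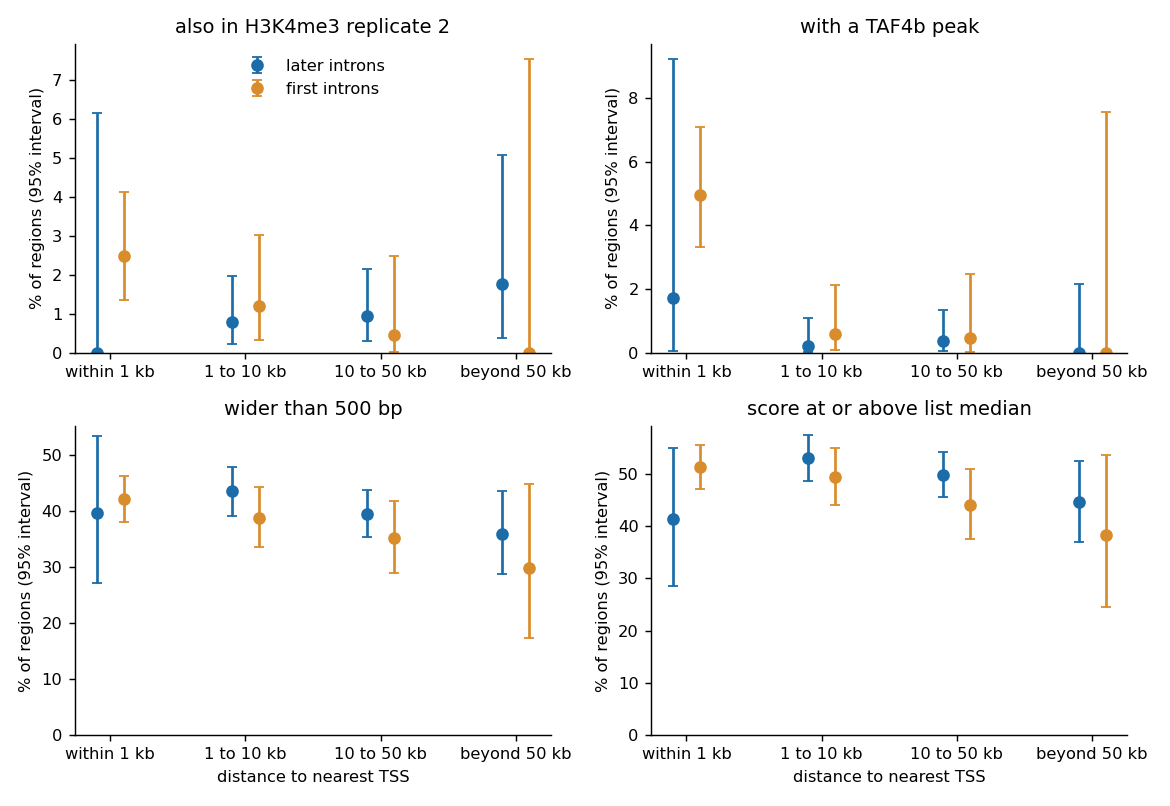
Share of later-intron and first-intron H3K4me3 regions with each of 4 properties, by distance to the nearest TSS, with exact 95% intervals. TAF4b is at 4.96% of first-intron regions within 1 kb and at or below 0.597% of either class in every band beyond, and the intervals of the classes overlap in every band of every panel.

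Later-intron regions were mostly single. They lay in 1146 transcripts, of which 1035 held 1, and the 111 others together held 245. The nearest other H3K4me3 region of any class was a median of 64185 bp away (58193 to 69253 bp), and 61 (4.77%, 3.66 to 6.08%) had one within 5 kb. For first-intron regions the median was 58207 bp (53632 to 65207 bp) and the share 7.44% (6.00 to 9.10%). A region of the promoter class was centred within 10 kb of 42 later-intron regions (3.28%, 2.37 to 4.41%) and 81 first-intron regions (6.93%, 5.54 to 8.54%). By transcript the order was the other way: a promoter-class region named the transcript of the intron for 77 later-intron (6.02%, 4.78 to 7.46%) and 48 first-intron regions (4.11%, 3.04 to 5.41%). Neither difference was tested, and both depend on which promoters were called.

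Transcripts with 4 members were the most filled, and 5 had that many. The 3 described were taken by their highest member score, where ENSMUST00000152855 tied at 51 with ENSMUST00000069837, which is not described. ENSMUST00000110067 on chromosome 2 held regions in introns 3, 5, 5 and 8 of 16, with scores of 37.1, 74.2, 30.2 and 48.7 in order of position. ENSMUST00000094906 on chromosome 1 held regions in introns 4, 4, 18 and 20 of 21, with scores of 32.5, 53.4, 41.8 and 39.4. ENSMUST00000152855 on chromosome 1 held 3 in intron 5 and 1 in intron 3 of 7, with scores from 27.8 to 51. The members of these 3 transcripts lay at least 13754 bp from any other region, and none was found in replicate 2. Of the 2 other transcripts with 4 members, ENSMUST00000162022 had one, in intron 4 of 10, that was found there, with a replicate 1 score of 39.4.

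Later-intron regions were listed on all 19 autosomes and the X chromosome. Chromosome 2 held the most later-intron regions, 115 (8.98%, 7.47 to 10.7%), and chromosome 18 the fewest, 31 (2.42%, 1.65 to 3.42%). The whole list had the same extremes among these 20 chromosomes, with 704 of its 8129 regions on chromosome 2 and 229 on chromosome 18. The intervals of the classes were apart on chromosome 4, with 5.39% of later-intron (4.22 to 6.77%) and 9.15% of first-intron regions (7.56 to 11.0%), and on chromosome 6, with 6.41% (5.13 to 7.89%) and 3.76% (2.75 to 5.02%). These 2 were picked out of 20 after their values were seen and were not tested. The X chromosome held 33 later-intron (2.58%, 1.78 to 3.60%) and 39 first-intron regions (3.34%, 2.38 to 4.53%). Of the 8129 regions of the whole list, 234 lay on the X, 510 on chromosome 4 and 421 on chromosome 6.

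**Figure D5:**
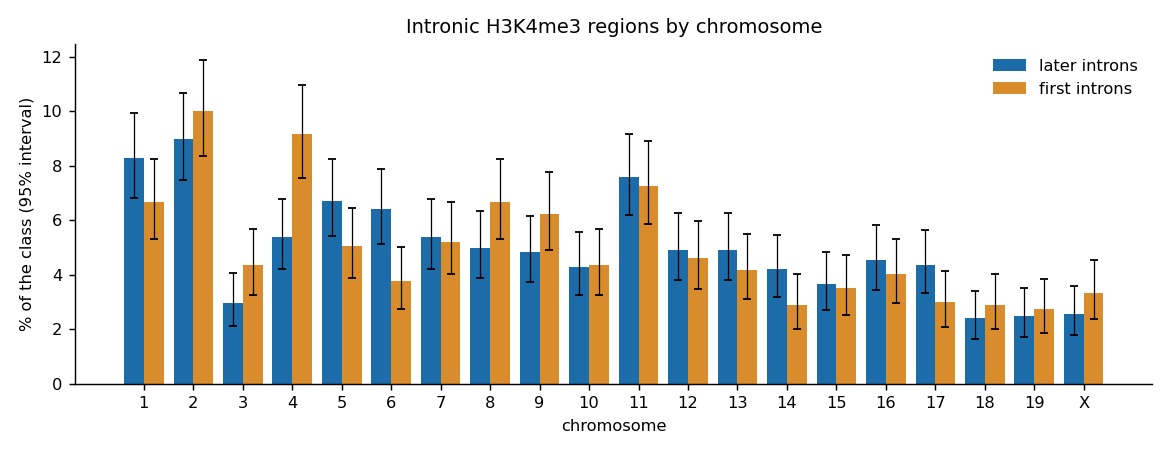
Share of the 1280 later-intron and 1169 first-intron H3K4me3 regions on each chromosome, with exact 95% intervals. The intervals of the classes do not overlap on chromosomes 4 and 6 and overlap on the others.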

How the data were processed

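The authors deposited 1 annotated list per H3K4me3 and TAF4b library, with HOMER's column names per the file headers. The peak score of each row was made by the authors' peak caller, per the file headers, and its scaling is not stated. Per the submitters' processing notes the build was GRCm39, and the tools, named without role or settings, included HOMER 4.10, Bowtie2 2.3.0, SAMtools 1.9 and Trim Galore 0.5.0. Whether IgG served as a control is not stated. Coordinates are the files' own.

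Members and comparisons were chosen with earlier results of these data known. Regions named are the 5 highest scores, 8 of those found in replicate 2, all with TAF4b, the 3 widest, the 3 highest intron numbers, the 3 farthest from a TSS and 3 transcripts among the 5 tied at the most members, ties being broken by score and then position. Overlap meant at least 1 bp. Distance to the TSS runs from region centres: for 296 of 296 transcripts nearest to 2 regions, both differed by the same amount within 1 bp. A RefSeq table of an older build matched 0 of 2208 transcript identifiers, so no gene is named and no sequence printed. Fisher's exact test (two-sided, conditional odds ratio) compared shares, each given with its Clopper-Pearson (exact) 95% interval, at a threshold of 0.05 after Benjamini-Hochberg adjustment over 4 shares. The procedure was tested on simulated data. Python 3.11.15, pandas 2.3.3, NumPy 2.4.6, SciPy 1.17.1, statsmodels 0.14.6 and matplotlib 3.10.9 were used.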

Additional observations from a re-analysis of the deposited data

How the results depend on the processing

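Of 30 alternatives to the 4 tested shares, 26 were planned and 4, the stratification by distance, were chosen after seeing the data. In 22 neither the direction nor the call changed. These include, for each of the 4 shares, the restriction to chromosomes 1 to 19, X and Y. That restriction removed no intronic region, so its values repeat the main ones and could not have differed. The TAF4b odds ratio of 0.115 lost the threshold under 3 of the 30 alternatives: beyond 1 kb of a TSS (0.493), with stratification by distance (0.41), and without H3K4me3 replicate 1. In that last case 0 of 20 later-intron and 1 of 29 first-intron regions had a peak (0, interval 0 to 56.6). Leaving out TAF4b replicate 1, TAF4b replicate 2 or H3K4me3 replicate 1 gave values of 0 to 0.0900, and H3K4me3 replicate 2 does not enter this result. The odds ratio for regions called again turned to 1.19 beyond 1 kb and to 1.06 for intronic regions of replicate 2 found in replicate 1. That for width turned to 0.259 without H3K4me3 replicate 1, and that for score to 0.747 without that library and to 0.912 at the upper quartile. None of these 5 turned values passed the threshold, nor did their main values; the cause was not tested. With the replicate block, which pairs lists of the same number, the TAF4b odds ratio was 0.0825 and the call did not change. No label ties a replicate number to a common animal or day, and 2 pairs are too few for a check. Without H3K4me3 replicate 2 the share called again has no value. Unknown depth, and the 320 regions of replicate 2, limit what absence from a list shows.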
